A study of Mus musculus with 4 samples.

Results

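The cells described here are 183 candidate conventional type 2 dendritic cells (cDC2s) among 43432 filtered leukocytes from the inflamed mouse colon. They were chosen from their own transcripts, with at least 1 unique molecular identifier (UMI) of Flt3, at least 1 of Cd209a, Zbtb46 or Dpp4, and at least 20 of the MHC class II genes H2-Aa, H2-Ab1 and H2-Eb1 together. A member had no UMI of Xcr1 or Clec9a, which mark type 1 dendritic cells (cDC1s), fewer than 3 of Fscn1 and Ccl22, which mark mature dendritic cells, and at most 1 of Siglech, a gene of plasmacytoid dendritic cells. It also had no UMI of Cd3e, Cd3d, Cd79a, Ngp, C1qa or Fcgr1. Levels of these genes in the members therefore describe the choice and are given without a test.

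The data were droplet-based single-cell RNA sequencing (scRNA-seq) libraries of CD45+ lamina propria leukocytes from 4 samples of mice with dextran sulfate sodium (DSS) colitis. Mice drank 2% DSS for 7 days, colons were taken on day 8, and tissue of 3 mice was mixed into each sample, so that mice cannot be told apart. The study compared AhR-null mice (B6.129-Ahr tm1Bra/J) with wild type mice on a C57BL/6 background. The sample labels give a number, DSS treatment and an age of 10 weeks, whereas a figure legend of the study gives 8 weeks. The labels give no genotype. All 4 samples were therefore left in no group, each value is given for samples 1 to 4, and no test was made between samples.

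Conventional dendritic cells develop from Flt3-dependent precursors, take up antigen in the tissue and present it to T cells. The cDC2 branch depends on the transcription factor Irf4, usually carries Sirpa (SIRPα) and Itgam (CD11b) and primes CD4+ T cells, whereas the cDC1 branch depends on Irf8 and Batf3 and cross-presents antigen on MHC class I. In the colon, dendritic cells that mature and leave for the lymph node switch on Ccr7, the receptor that guides this migration. Monocytes recruited during colitis can acquire MHC class II and Itgax (CD11c), which makes the border between cDC2s and monocyte-derived cells hard to draw by single genes.

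The samples held 11425, 13730, 11581 and 8493 deposited cells with 113806334, 135516016, 101579112 and 72509408 UMIs. Filtered cells had at least 200 genes and under 20% mitochondrial UMIs, and numbered 10986, 13223, 11164 and 8059. The rule found 45, 33, 68 and 37 members, with median depths of 12521, 10134, 8982.5 and 8315 UMIs. Members were 0.410% (95% exact binomial interval 0.299 to 0.548) of filtered cells in sample 1, 0.250% (0.172 to 0.350) in sample 2, 0.609% (0.473 to 0.772) in sample 3 and 0.459% (0.323 to 0.632) in sample 4. The share was lowest in sample 2 and highest in sample 3, and the intervals of these samples did not overlap. The median of the 4 shares was 0.434%. Among the dendritic sets defined below (members with cDC1-like, mature DC-like and plasmacytoid-like cells), members were 33.3%, 43.4%, 29.7% and 43.5% of 135, 76, 229 and 85 cells. Intervals here and below cover counting error only, and a lower share cannot be told apart from more cells of other types. Cell barcodes shared between pairs of libraries made up 0.271% to 0.423% of the smaller library, and 0 were members in both.

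Levels below are summed UMIs of the members of a sample per 1000000 of their UMIs (CPM). One UMI was worth 1.63, 2.91, 1.46 and 3.09 CPM in samples 1 to 4, and a count of 0, read as up to 3 UMIs, allows up to 4.89, 8.73, 4.38 and 9.28 CPM. The number of cells is small, so that 1 cell with many transcripts can set a level, and the share of the largest cell is given for some of the genes concerned.

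Entry through Cd209a, which encodes a C-type lectin of the DC-SIGN family, was the exception. The gene lies on mouse chromosome 8 (GRCm38, GENCODE M21, 3743397 to 3748984, minus strand). A Cd209a UMI was present in 17 of 45, 16 of 33, 15 of 68 and 11 of 37 members, or 59 of 183 (32.2%). Zbtb46, a transcription factor of conventional dendritic cells, was detected in 115 (62.8%), and Dpp4 (CD26), a surface peptidase of conventional dendritic cells and of some T cells, in 133 (72.7%). Only Cd209a brought in 18 members, only Zbtb46 22 and only Dpp4 36, while 17 carried all 3. Flt3 rested on a single UMI in 67 members.

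**Figure D1:**
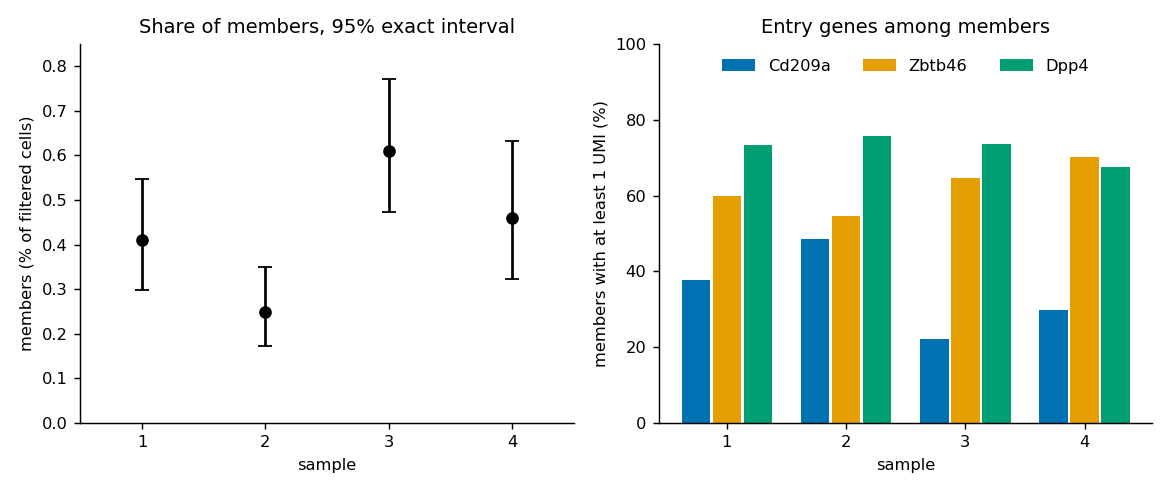
Left, members as a percent of filtered cells in samples 1 to 4 with the 95% exact binomial interval. Right, percent of members with at least 1 UMI of Cd209a, Zbtb46 and Dpp4. Sample 3 had the highest share of members (0.609%) and the lowest share of members with Cd209a (22.1%).

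The limits of the rule lay close to other cells. MHC class II UMIs per member had medians of 170, 164, 121.5 and 120, with minima of 28, 21, 20 and 20. Members with 20 to 29 of these UMIs numbered 1, 2, 6 and 2, and 5, 4, 2 and 4 cells with 10 to 19 were left outside by this limit alone. The limit on Fscn1 and Ccl22 alone kept out 164 cells, of which 101 came from sample 3. Having no Flt3 UMI alone kept out 190 cells, and having a UMI of Cd3e, Cd3d, Cd79a or Ngp alone kept out 1075. Of these 1075 cells, 342, 536, 100 and 97 came from samples 1 to 4. Sample 2, with the lowest share of members, thus lost the most cells to this limit. The part of this limit in the order of the shares was not tested. The set is thus a cut through neighbouring cells and its size depends on where the limits stand.

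The label was checked against genes of cDC2s outside the rule. Sirpa, an inhibitory receptor that engages CD47, was at 93.0, 172, 232 and 186 CPM in members and had a UMI in 120 of them (65.6%). Itgax was at 113, 93.1, 70.1 and 152 CPM, with a UMI in 87 members (47.5%). Irf4 was at 58.7, 119, 33.6 and 95.9 CPM, in 59 members (32.2%). Each of these genes was thus found in all 4 samples and in a part of the members. Clec10a, a galactose-binding lectin of cDC2s (chromosome 11, 70156197 to 70170834, plus strand), had a UMI in 67 members (36.6%). Of the same list, Mgl2, a related lectin, was found in 29 members (15.8%) and Clec4a4 in 4, with 7 UMIs in all and 0 in samples 3 and 4. Klf4 and Cd7, also listed, were found in 138 (75.4%) and 59 (32.2%) members. Counts that include Cd209a describe the choice in part and support no label. Cd209a or Clec10a was found in 86 members (47.0%), at least 2 of Cd209a, Clec10a, Irf4, Sirpa, Itgax and Itgam in 141 (77.0%), and none of these 6 in 14 (7.65%).

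Detection was also compared at an equal depth of 1000 UMIs per cell. Clec10a was then found in 13.3%, 9.09%, 1.47% and 5.41% of members, against 0, 0, 0.141% and 0.277% of T cells (Cd3e and Cd3d without Flt3), which should lack it. In sample 3, the member share (exact interval 0.0372 to 7.92) overlapped that of T cells (0.00357 to 0.782). The same held in sample 4 (0.661 to 18.2 against 0.0335 to 0.996), while the intervals were apart in samples 1 and 2. Without thinning, the shares were 53.3%, 39.4%, 27.9% and 29.7% of members, against 0.374%, 0.874%, 0.563% and 1.24% of T cells with median depths of 7326, 5339, 9616.5 and 10135 UMIs. Itgax at equal depth was in 15.6%, 9.09%, 7.35% and 10.8% of members and in 1.12%, 1.97%, 0.845% and 0.968% of T cells. Its exact intervals overlapped in sample 2 alone (1.92 to 24.3 against 1.30 to 2.85). Klf4 at equal depth was in 22.2%, 18.2%, 25% and 27.0% of members and in 6.92%, 8.75%, 8.45% and 8.02% of T cells. Its exact intervals overlapped in sample 2 alone. Cd7 at equal depth was in 8.89%, 15.2%, 7.35% and 0% of members. It was in 11.8%, 37.0%, 6.34% and 6.36% of T cells, which was above members in samples 1, 2 and 4. Irf4 at equal depth was in 8.89%, 12.1%, 1.47% and 8.11% of members and in 5.23%, 1.97%, 4.37% and 4.15% of T cells. These exact intervals were apart in sample 2 alone. In monocyte-like cells (defined below), Irf4 was in 0.595%, 0.862%, 0.270% and 0.621%, under members in each sample. The exact intervals of members and monocyte-like cells were apart in sample 1 alone. Sirpa at equal depth was in 15.6%, 18.2%, 17.6% and 8.11% of members and in 30.8%, 20.7%, 25.7% and 23.6% of monocyte-like cells. Itgam was in 8.89%, 15.2%, 13.2% and 16.2% of members and in 36.3%, 30.2%, 44.1% and 39.1% of monocyte-like cells. Sirpa and Itgam were thus not higher in members than in monocyte-like cells in any sample. In T cells, Itgam was in 2.62%, 1.46%, 11.0% and 10.8%, with exact intervals apart from those of members in sample 2 alone. Sirpa was in 1.31%, 0.948%, 4.08% and 3.60% of T cells, with exact intervals that overlapped those of members in sample 4 alone.

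Against the label stood Ccr7. This gene lies on chromosome 11 as well (99144196 to 99155077, minus strand). Its level in members was 369, 276, 604 and 458 CPM, and 115 members (62.8%) carried a UMI. Of these, 67 (36.6% of all members) had Ccr7 with neither Cd209a nor Clec10a, 48 (26.2%) had Ccr7 together with Cd209a or Clec10a, and 30 members (16.4%) had none of the 3 genes. At 1000 UMIs per cell, Ccr7 was in 26.7%, 21.2%, 27.9% and 24.3% of members. It was in 15.5%, 10.2%, 10.3% and 6.92% of T cells and in 2.18%, 1.72%, 0.811% and 1.24% of monocyte-like cells. Of the other listed genes of mature dendritic cells outside the rule, Traf1 had a UMI in 162 members, Tmem123 in 154 and Relb in 146. Il4i1, Anxa3, Socs2 and Cacnb3 were found in 47, 24, 20 and 17 members, and Nudt17 in 0. The cells are therefore called members here.

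To see where members stood among neighbouring cells, they were compared with cDC1-like cells (at least 2 UMIs of Xcr1 and Clec9a), mature DC-like cells (at least 3 of Fscn1 and Ccl22 with Ccr7) and monocyte-like cells (Ly6c2 and Ccr2). These sets held 36, 16, 32 and 14, then 35, 20, 117 and 26, then 504, 116, 370 and 161 cells in samples 1 to 4. A gene was compared when the mean level of the 2 sets reached 10 CPM, and called when log2(CPM + 5) differed by at least 1 (2-fold) in the same direction in every sample with 30 cells in both sets. That left samples 1 and 3 for the dendritic sets and all 4 for monocytes. A call is a rule of size with no p-value, and the 3 comparisons share the members' own cells. All sets were defined by transcripts of the same cells, so that calls describe the sets and test nothing.

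Compared with cDC1-like cells, members carried more of the cDC2 markers Irf4, Sirpa and Cd7 and less of most listed cDC1 markers. They also carried more of Tcf4, which is on the plasmacytoid list. Of 7269 genes compared, 266 (3.66%) were called higher and 175 (2.41%) lower. Among the cDC2 markers outside the rules, 4 of 8 compared were higher and 0 lower, with a median log2 difference of 2.0 against 0.07 over all genes. Among the cDC1 markers, 7 of 8 were lower, with a median of -1.79. Of the plasmacytoid markers outside the rules, 2 of 3 compared were higher and 0 lower, with a median of 1.97.

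Sirpa was at 20.5, 14.5, 65.4 and 24.5 CPM in cDC1-like cells, which put members 4.55-fold higher in sample 1 and 3.55-fold in sample 3. Irf4 was at 4.38, 14.5, 2.04 and 8.17 CPM there, so that members stood 13.4-fold higher in sample 1 (exact interval 4.23 to 68.0) and 16.4-fold in sample 3 (2.67 to 677). Cd7, an immunoglobulin-family receptor better known from T cells and innate lymphocytes, was at 111, 160.1, 27.8 and 55.7 CPM in members against 13.1, 14.5, 2.04 and 0. Each of these was higher in members in all 4 samples, including samples 2 and 4 that were not read. Tcf4, a transcription factor needed by plasmacytoid cells and found in part of the cDC2s, was at 352, 466, 466 and 427 CPM against 95, 67.7, 104 and 73.6. Runx2, listed as a plasmacytoid marker, was at 693, 553, 606 and 594 CPM against 62.8, 111, 184 and 85.8. Siglech itself was held low by the rule.

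Cadm1, an adhesion molecule of cDC1s, showed the sharpest contrast among the listed cDC1 genes outside the rule, with 646, 779, 444 and 1042 CPM in cDC1-like cells and 47.3, 2.91, 4.38 and 0 in members. It was found in 6 members, 1 of which gave 75.8% of its UMIs. Wdfy4, required for cross-presentation, was at 233, 335, 148 and 241 CPM in members against 748, 1059, 599 and 781. Naaa, an acid amidase, was at 129, 58.2, 54.1 and 114 CPM against 525, 537, 337 and 654. For these 3 genes the highest member level lay under the lowest cDC1-like level. Batf3 was lower in members (39.1, 55.3, 13.2 and 40.2 against 121, 111, 63.4 and 65.4 CPM). Irf8 did not pass the rule, with 249.6, 125, 101 and 164 CPM in members and 548, 455, 182 and 200.3 in cDC1-like cells.

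The genes with the largest differences from cDC1-like cells lay largely outside the marker lists. Fabp5, a fatty acid-binding protein, was at 403, 250.3, 475 and 219.5 CPM in members against 7.31, 19.3, 16.4 and 12.3, which is 55.2-fold higher in sample 1 and 29.0-fold in sample 3. It was still higher in mature DC-like cells, at 1585, 2296, 1345 and 1763 CPM. Nrp2, a neuropilin co-receptor, followed the same order with 101, 72.8, 257 and 89.7 CPM in members, 1.46, 0, 12.3 and 12.3 in cDC1-like and 328, 459, 682 and 788 in mature DC-like cells. Clec4n (dectin-2), a receptor for fungal mannans, was at 117, 58.2, 111 and 216 CPM in members and at most 6.13 in cDC1-like cells, and Cybb, the catalytic subunit of the phagocyte oxidase, at 391, 294, 405 and 356 against 29.2, 14.5, 55.2 and 32.7. S100a4, a calcium-binding protein, was at 1029, 1374, 532 and 359 CPM against 55.5, 48.4, 90.0 and 131. Fabp5 and Nrp2 thus placed members between the other dendritic sets, while Clec4n and Cybb are genes of phagocytes. Cd36, a scavenger receptor, was lower in members with 0, 11.6, 13.2 and 21.6 CPM against 71.6, 9.67, 376 and 1651, although not in sample 2, which was not read. Adgrg6, Mreg, Tmem176b and Myo1e were also among the 10 largest increases. The largest decreases were Clec9a and Xcr1, which the rule set, and Cd36, Cadm1, Asap2, Ccser1, Plpp1, P3h2, Lrrc1 and Hepacam2.

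Some homing and growth factor receptors differed as well. Ccr2, the receptor for Ccl2 on monocytes and some cDC2s, was at 124, 128, 76.0 and 71.1 CPM in members against 26.3, 24.2, 32.7 and 28.6 in cDC1-like cells, and Ccr1 was called higher as well. Csf1r, the receptor for the macrophage growth factor, was at 83.2, 72.8, 96.4 and 68.0 CPM against 4.38, 9.67, 32.7 and 16.3. Itgae (CD103), the integrin that binds epithelial E-cadherin, was lower, at 29.4, 69.8, 30.7 and 86.6 CPM against 200.2, 189, 194 and 507. Among homing and retention receptors, 4 of 10 compared were higher and 1 lower. In the MHC class I pathway 0 of 10 were called in either direction, with a median log2 difference of 0.01.

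**Figure D2:**
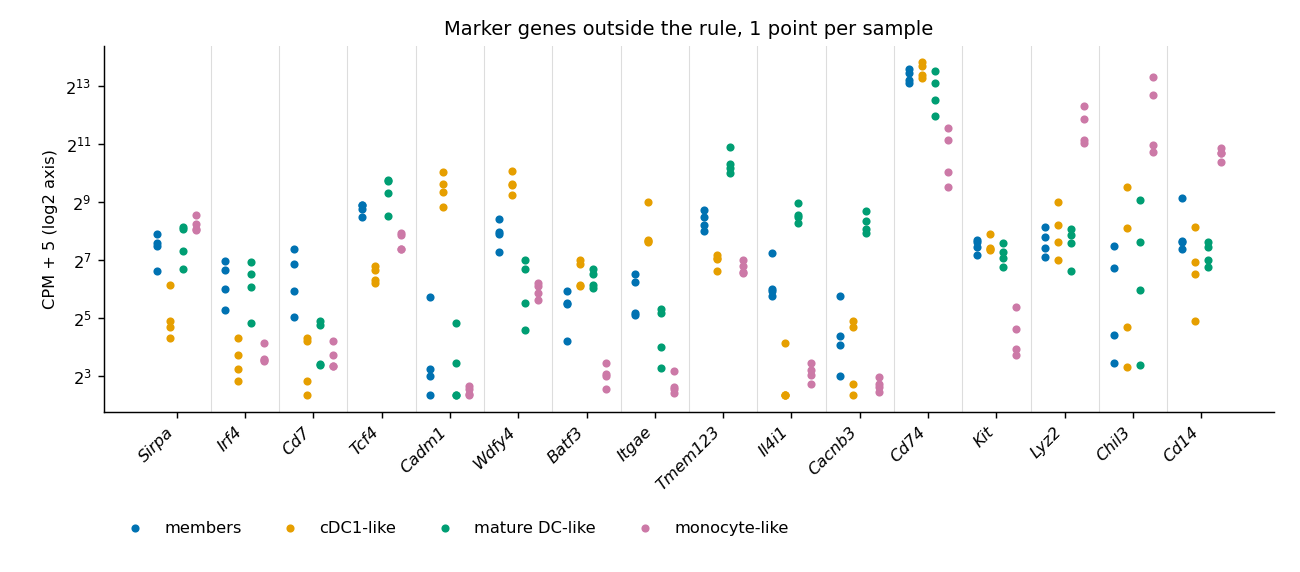
Level of 16 genes outside the rule in members, cDC1-like, mature DC-like and monocyte-like cells, as CPM + 5 on a log2 axis with 1 point per sample. Members lay above cDC1-like cells for Sirpa and Irf4 in all 4 samples, far below them for Cadm1, and above monocyte-like cells for Cd74 and Kit.

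Compared with mature DC-like cells, members held more of 4 of 8 cDC2 markers (Itgax, Clec10a, Mgl2 and Cd7) and less of most mature DC markers. Of 7290 genes compared, 263 (3.61%) were higher and 333 (4.57%) lower. Of the mature DC markers outside the rules, 6 of 8 were lower and 0 higher, with a median log2 difference of -2.30 against 0.06 over all genes. The limit on Fscn1 and Ccl22 and the Ccr7 minimum built part of this contrast, and Ccr7 levels are given as a description. Ccr7 was at 1686, 2334, 2079 and 1995 CPM in mature DC-like cells, so that members held 0.219, 0.118, 0.290 and 0.229 of that level. Against cDC1-like cells, 3 of 8 mature DC markers compared were higher in members and 0 lower, with a median log2 difference of 1.21. Against monocyte-like cells, 4 of 8 were higher and 0 lower, with a median of 1.45.

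Costimulatory genes were lower in members in 6 of 10 cases and higher in 0. Cd40, the receptor through which T helper cells license dendritic cells, was at 63.6, 58.2, 68.7 and 27.8 CPM against 187, 113, 258 and 144. Tnfsf4 (OX40L) was at 17.9, 55.3, 61.4 and 40.2 CPM against 143, 551, 304 and 362, and Cd274 (PD-L1), an inhibitory ligand, at 674, 547, 899 and 727 against 1441, 1610.2, 1810.2 and 1848. In all 3 the groups did not overlap across samples. Icosl, Tnfsf9 and Cd70 were the other genes called lower. Cd86 did not pass the rule and its levels overlapped, with 1269, 1423, 943 and 1543 CPM in members and 1331, 1048, 1344 and 1475 in mature DC-like cells. Cd80 was at 303, 361, 307 and 337 CPM against 552, 756, 722 and 712, which passed 2-fold in sample 3 and not in sample 1.

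Some genes of MHC class II loading were higher in members. H2-DMa and H2-DMb1, which encode the DM peptide exchanger, were at 514, 448, 272 and 278 and at 442, 480.2, 222 and 337 CPM in members, against 200.5, 205, 67.1 and 119 and 143, 146, 55.2 and 116. H2-Oa, which encodes a chain of the DM inhibitor DO, was at 114, 151, 97.9 and 195 CPM against 49.6, 32.4, 31.2 and 76.3. The MHC class II pathway counted 3 of 12 genes higher and 1 (Cd63) lower.

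Other named increases over mature DC-like cells were Clec10a (225, 148, 76.0 and 145 CPM against 80.2, 0, 3.32 and 19.8), Itgb7, a gut-homing integrin chain (134, 137, 61.4 and 92.8 against 21, 27.0, 9.30 and 14.1), and Cfp, the complement regulator properdin (212, 250.3, 129 and 223 against 36.3, 10.8, 17.9 and 65.0). The inflammasome sensors Nlrp3 and Aim2 were also higher, the latter at 144, 198, 216 and 259.7 CPM against 59.2, 75.6, 55.8 and 67.8. Ctnnd2, a catenin, led the genes called higher in the samples read with 282, 311, 117 and 259.7 CPM in members against 11.5, 10.8, 5.32 and 175, though in sample 4, which was not read, the levels were close. Ifitm6, Tbxas1, Wdfy4, Cd180, Tm6sf1, Emp1 and Sgms1 stood beside it. Cd180, a Toll-like receptor homologue, was at 97.9, 69.8, 96.4 and 207 CPM against 15.3, 5.40, 12.6 and 76.3.

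Among the decreases, Anxa3 was at 4.89, 23.3, 21.9 and 40.2 CPM in members against 181, 270.2, 358 and 266, and Serpinb6b, a protease inhibitor, at 37.5, 49.5, 76.0 and 55.7 against 479, 648, 732 and 288. Dscaml1 had 1 positive member and 91.6, 184, 278 and 102 CPM in mature DC-like cells. Socs2, a feedback inhibitor of cytokine signalling, was at 42.4, 17.5, 19 and 9.28 CPM against 428, 384, 405 and 243. The remaining genes of largest decrease were Fscn1 and Ccl22, set by the rule, and Slc22a23, Slco5a1, Syn3 and Tmem150c. Il12b, a subunit of IL-12 and IL-23, was in 6 members, at 16.3, 23.3, 4.38 and 0 CPM against 137, 1237, 134 and 367. For Anxa3, Serpinb6b, Socs2 and Il12b, every member level lay under every mature DC-like level. Single members gave 37.5% of the UMIs of Socs2 and 38.1% of those of Il12b.

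Compared with monocyte-like cells, members carried 7 of 12 MHC class II pathway genes at a higher level and 6 of 7 monocyte markers at a lower one. All 4 samples could be read. Of 7344 genes compared, 306 (4.17%) were higher and 378 (5.15%) lower. Flt3 and Zbtb46 among the increases and Fcgr1 among the decreases were set by the rule. Of the cDC2 markers, 5 of 8 compared were higher (Itgax, Irf4, Clec10a, Mgl2 and Cd7) and 1, Itgam, was lower. The MHC class I pathway had 0 of 10 genes called in either direction, with a median log2 difference of 0.32.

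In the MHC class II pathway 7 of 12 genes were higher and 1 lower, with a median log2 difference of 1.91 against 0.11 over all genes. Since members were chosen for MHC class II UMIs, genes induced with them are not independent of the choice. Cd74, the invariant chain, was at 10985, 12242, 8683 and 9316 CPM in members against 2969, 2219, 1033 and 728, a ratio of 3.70, 5.52, 8.41 and 12.8. The ratio differed among samples because the monocyte-like level varied more than that of members. H2-Oa was at most 6.94 CPM in monocyte-like cells, H2-DMb2 at most 16.0, and Ciita, the master regulator of the pathway, was at 35.9, 75.7, 26.3 and 30.9 CPM in members against 11.3, 6.85, 0.901 and 1.56. March1, a ubiquitin ligase that removes MHC class II and CD86 from the surface, was the gene called lower, at 34.3, 26.2, 74.5 and 34.0 CPM against 214, 97.0, 213 and 129. Of 9 costimulatory genes compared, 5 were higher (Cd80, Cd83, Icosl, Tnfsf4 and Pdcd1lg2) and 0 lower. Cd83 was at 636, 856, 579 and 807 CPM against 148, 204, 111 and 139. Cd80 was at 111, 137, 101 and 138 CPM in monocyte-like cells.

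Kit, the stem cell factor receptor, which is also a mast cell gene, was at 199, 169, 139 and 189 CPM in members against 10.1, 7.99, 19.5 and 35.8, and 106 members (57.9%) had a UMI. At 1000 UMIs per cell, Kit was in 11.1%, 6.06%, 10.3% and 18.9% of members. In T cells it was in 7.85%, 16.2%, 1.83% and 2.90%, which was above members in sample 2. Kit gave 96.3% of the UMIs of the mast cell and basophil list in members, and Fcer1a of that list was at 0. Tbc1d4, a Rab GTPase-activating protein, was at 633, 707, 1229 and 1336 CPM against 17.1, 9.13, 16.2 and 51.4, and Zfp366 (DC-SCRIPT), a nuclear protein of dendritic cells, at 163, 212, 216 and 186 against 2.06, 2.28, 1.5 and 4.67. Rtn1, Pkib, P2ry10, Ctnnd2, Ccr7 and H2-Oa completed the increases. Pkib, an inhibitor of protein kinase A, was at 661, 821, 435 and 1085 CPM against 36.0, 26.3, 16.5 and 18.7. Gpr183, the oxysterol receptor that positions dendritic cells, was at 331, 477, 259 and 263 CPM against 26.3, 38.8, 27.6 and 29.6. For each of these genes the lowest member sample lay above the highest monocyte-like sample. Itga4, which pairs with Itgb7 in gut homing, was at 814, 754, 938 and 696 CPM against 156, 115, 111 and 160.4.

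Monocyte genes were low in members. Of the monocyte markers outside the rules, 6 of 7 compared were called lower, with a median log2 difference of -5.00. The listed monocyte markers summed to 2660, 1993, 2402 and 1524 CPM in members and to 14219, 15374, 16421 and 20530.5 in monocyte-like cells. Plac8 gave 63.1% of that sum in members. It was at 2137, 1399.7, 1042 and 952 CPM in members and 1369, 1243, 1491 and 838 in cDC1-like cells, so that it did not separate these sets. Chil3, a chitinase-like protein of monocytes and neutrophils, was at 16.3, 5.82, 174 and 98.9 CPM against 1672, 1983, 6524 and 10164, Vcan at 4.89, 0, 33.6 and 0 against 593, 648, 828 and 967, and Lyz2 at 163, 212, 276 and 129.9 against 3669, 5061, 2052 and 2240.1. Chil3 was higher in samples 3 and 4 than in samples 1 and 2 in both members and monocyte-like cells, although 1 member gave 35.6% of its UMIs. Saa3, Msr1, Thbs1, Slc7a2, Apoc2 and F13a1 were other genes of largest decrease.

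Among cytokines, 6 of 11 compared were lower in members than in monocyte-like cells and 0 higher, and among chemokines 5 of 11 were lower and 0 higher. Tnf was at 11.4, 14.6, 39.5 and 21.6 CPM against 114, 81.1, 285 and 284, and Cxcl2, a chemokine for neutrophils, at 237, 332, 1251 and 365 against 4093, 6069.9, 5527 and 6875. Il1a, Il1rn, Il10, Il18 and Osm were also called lower. Il1b did not pass the rule and was abundant in members, at 1096, 1795, 1280.1 and 1280.1 CPM against 3956, 3094, 2581 and 3468, with a UMI in 157 members (85.8%). At 1000 UMIs per cell, Il1b was in 46.7%, 66.7%, 54.4% and 59.5% of members and in 8.79%, 5.90%, 20.7% and 14.4% of T cells, and without thinning in 29.5%, 18.7%, 47.3% and 35.8% of T cells. Among pattern recognition genes 7 of 12 were lower and 0 higher. Tlr2 was at 17.9, 11.6, 48.2 and 21.6 CPM against 294, 213, 220.1 and 241, and Clec4e (Mincle) at 81.6, 49.5, 308 and 309 against 1168, 863, 1345 and 1344. Clec4n overlapped between the sets, with 143, 63.9, 101 and 112 CPM in monocyte-like cells, and did not pass the rule. The monocyte-like set of sample 2 carried epithelial transcripts, with listed epithelial markers summing to 1636 CPM there, 10.9 to 27.3 in the other samples and 13.2 to 69.8 in members.

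Within the members, those with and without a Cd209a UMI were compared in each sample, with 17 and 28, 16 and 17, 15 and 53, and 11 and 26 cells. Cells without Cd209a had to carry Zbtb46 or Dpp4, and the split follows 1 detected transcript, so that a cell on the negative side may still express the gene. Of 7307 genes compared, 11 (0.151%) were called higher in Cd209a-positive members and 35 (0.479%) lower in all 4 samples. The genes called higher include Cd209a itself, which set the division. Over all genes the median log2 difference was -0.04. The calls depended on which members were read: without those carrying transcripts of other lineages, 21 genes were higher and 30 lower, of which 7 and 16 were among the 11 and 35. With Dpp4 not counted as an entry gene, 22 were higher and 35 lower, of which 9 and 21 were.

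On the higher side stood Clec10a, at 424, 239, 215 and 429 CPM in Cd209a-positive members against 76.9, 70.5, 34.2 and 17.9 in the others. Ccl9, a chemokine of myeloid cells, was at 107, 182, 133 and 309 CPM against 19.9, 48.8, 43.7 and 58.2, and Itgam at 99.3, 213, 360.0 and 279 against 39.9, 97.6, 106 and 134. In sample 4, 1 Cd209a-positive member gave 21 of the 44 Ccl9 UMIs of all members. Tep1, a telomerase-associated protein, was at 103, 119, 82.1 and 119.7 CPM against 34.2, 43.4, 24.7 and 40.3. Clec10a and Itgam were the only genes called among the 8 cDC2 markers compared. The 5 macrophage markers compared had a median log2 difference of 1.01, with 0 called. Cd209d, a neighbouring member of the same lectin family, was at 22.9, 94.2, 101 and 59.9 CPM against 0, 0, 1.90 and 4.48, and reads could be split between such related genes. Ccr2 did not pass in sample 4, with 252, 251, 145 and 99.8 CPM against 28.5, 21.7, 55.1 and 58.2.

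On the lower side stood Ccr7, at 95.4, 113, 152 and 159.6 CPM in Cd209a-positive members against 572, 418, 739.6 and 591. A Ccr7 UMI was nonetheless present in 30 of 59 positive (50.8%) and 85 of 124 negative members (68.5%). The shares were 58.8% and 60.7% in sample 1, 50% and 88.2% in sample 2, 53.3% and 69.8% in sample 3, and 36.4% and 61.5% in sample 4, so that they were close in sample 1 and apart in sample 2. Mreg, melanoregulin, was at 15.3, 0, 37.9 and 9.98 CPM against 82.6, 75.9, 342 and 116, and Fchsd2, an endocytosis adaptor, at 22.9, 62.8, 63.2 and 9.98 against 108, 369, 276 and 89.6. Both were abundant in mature DC-like cells, at 454, 448, 899 and 712 CPM for Mreg and 852, 827, 989 and 811 for Fchsd2. Spred1, an inhibitor of Ras signalling, was at 87.8, 151, 133 and 129.7 CPM against 325, 401, 394 and 623. Itga4, Ktn1, Bbs9, Tmcc3, Optn and Mpp5 were lower too, as were Socs2 and Cacnb3 of the mature DC list, for which 3 of 8 compared were lower and 0 higher. Median depths of the positive members were 14742, 10303.5, 8556 and 9624 UMIs and of the negative members 12157, 9877, 9152 and 7675.5, and the part of depth in the split was not tested.

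**Figure D3:**
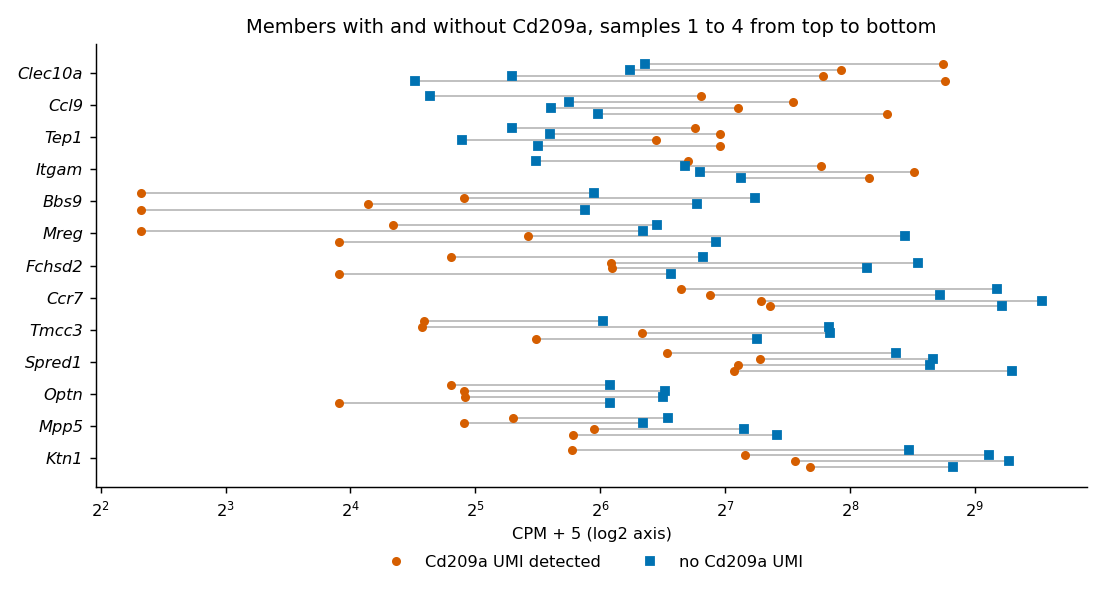
Levels of genes with the largest smallest-over-samples differences between members with a Cd209a UMI (orange circles) and without (blue squares), as CPM + 5 on a log2 axis, with 1 line per sample. Clec10a, Ccl9, Tep1 and Itgam lay to the right in positive members and the other genes shown to the left in all 4 samples.

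**Figure D4:**
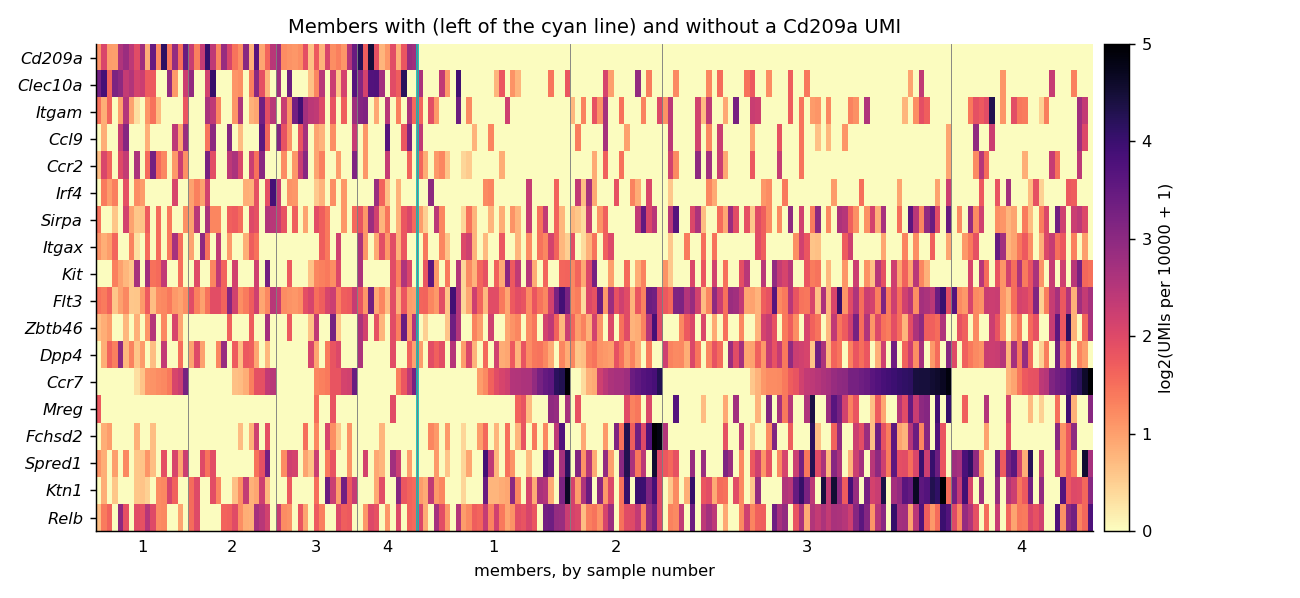
Each column is 1 of the 183 members and each row a gene, with colour for log2(UMIs per 10000 + 1). Members with a Cd209a UMI stand left of the cyan line, and samples 1 to 4 are ordered within each side, by rising Ccr7. Clec10a and Itgam were denser on the left, Ccr7 and Ktn1 on the right, and many members had none of these UMIs.

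Other divisions were read over the listed genes alone. Of 207 listed genes compared between members with and without a Ccr7 UMI, 3 (1.45%) were called higher with Ccr7 in all 4 samples and 0 lower. They were Ccr7 itself, Cxcl9 and Socs2. Cxcl9, an interferon-induced chemokine, was at 495, 492, 37.7 and 95.5 CPM with Ccr7 and at 24, 0, 4.82 and 0 without. It was found in 10, 4, 8 and 2 members, and 1 cell gave 39.7% of its UMIs. Between members with and without Zbtb46, 4 of 206 listed genes (1.94%) were higher and 0 lower, namely Zbtb46 itself, Anxa3, Tnfsf4 and Ccr7. Members without Zbtb46 had to carry Cd209a or Dpp4, so that part of this contrast follows from the rule. Ccr7 was at 524, 379, 750.4 and 568 CPM against 119, 118, 249 and 259.7. Itgae was detected in 6, 11, 9 and 14 members, and only samples 2 and 4 could be read at 10 cells on each side, where 9 of 199 listed genes (4.52%) were higher and 17 (8.54%) lower. There, Itgae-positive members held less Cd209a (109 and 23.0 against 234 and 176 CPM) and Ccr7 (154 and 146 against 377 and 669), and more Itgav (283 and 575 against 85 and 181). They also held more of the neutrophil transcripts S100a8 and S100a9, but 1 member in sample 2 with 95 UMIs of S100a8 and 1 in sample 4 with 71 gave most of that transcript there. The part of these transcripts in the other differences was not tested. A division by Ly6c2 could be read in sample 3 alone and is not described. At least 1 UMI of Mki67 or Top2a, genes of proliferation, was found in 15, 9, 12 and 8 members. Their median depths were 14601, 14678, 10001.5 and 11568 UMIs, against 11964.5, 7820.5, 8384.5 and 7442 in the other members. The part of depth in these counts was not tested, and they are no share of proliferating cells.

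The aryl hydrocarbon receptor Ahr, the subject of the study (chromosome 12, 35497974 to 35535038, minus strand), was at 284 (95% exact Poisson interval 243 to 329), 437 (369 to 512), 348 (305 to 395) and 652 (567 to 747) CPM in members, and 135 of them (73.8%) had a UMI. It was highest in sample 4, whose interval overlapped no other. Counted transcripts say nothing on whether the deleted part of the gene is present, and no genotype was read from them. Ahr in mature DC-like cells was at 124, 108, 103 and 141 CPM, so that members were 2.29-, 4.04-, 3.38- and 4.62-fold higher, and the call was made in samples 1 and 3. In cDC1-like cells it was higher than in members in all 4 samples (498, 595, 478 and 907 CPM), without passing 2-fold. Monocyte-like cells held 151, 185, 100.3 and 119.9 CPM, and sample 1 did not pass 2-fold. Members, cDC1-like and mature DC-like cells all had their highest Ahr level in sample 4, and monocyte-like cells in sample 2.

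Of the other AhR pathway genes, Arnt, the dimer partner, was at 119, 93.1, 156 and 170.1 CPM and Tiparp, an AhR-induced enzyme that limits the receptor, at 434, 311, 199 and 269 CPM. Tiparp was highest in sample 1, where Ahr was lowest. The classical targets Cyp1a1 and Cyp1b1 had 0 UMIs in members in all samples. Odc1, the rate-limiting enzyme of polyamine synthesis, was at 197 (164 to 236), 221 (174 to 277), 76.0 (56.8 to 99.7) and 68.0 (42.6 to 103) CPM. Intervals of samples 1 and 2 did not overlap those of samples 3 and 4. The monocyte-like set showed the same division, at 263, 296, 66.7 and 46.0 CPM, whereas cDC1-like cells did not, at 264, 353, 157 and 298.

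Some secreted factors and enzymes were found in few members. Aldh1a2, which makes the retinoic acid that imprints gut homing, had 4 UMIs in all members. Ido1 was in 2 members, Il23a in 5 and Il10 in 8. Il6 was in 8 members, at 55.5, 37.8, 13.2 and 0 CPM, with 58.9% of its UMIs in 1 cell. Ccl17, a T cell attractant of cDC2s, was in 6 members, at 52.2, 0, 7.31 and 0 CPM, of which 2 members gave the level of sample 1.

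Levels differed widely among samples for a small group of genes. Of 4211 genes that reached 50 CPM in any sample, 241 (5.72%) had a range of at least 4-fold, and in 60 of them (24.9%) 1 cell gave at least 50% of the UMIs of the highest sample. Such genes made up 6 of the 10 largest ranges. Il22 was at 556 CPM in sample 2, with 191 UMIs in 1 cell, and at 0 elsewhere, and Il2 at 128 CPM in sample 2 had 44 UMIs in 1 cell. Both are cytokines of lymphocytes. Ccl3 was at 21.2, 681, 65.8 and 55.7 CPM with 94.4% of the UMIs of sample 2 in 1 cell, and Ccl4 at 26.1, 722, 76.0 and 105 with 78.2%. These high levels in sample 2 thus came from single members. Serpine2 (90.0% in 1 cell) and Stmn1 (52.4%) were of the same kind.

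Some ranges were spread over more cells. Ebf1, a transcription factor of B cells and stromal cells, was at 31.0, 306, 39.5 and 0 CPM, with 19 positive members in sample 2, 1 of which gave 38.1% of its UMIs there. Mt2, a metallothionein, was at 0, 11.6, 124 and 27.8 CPM, with 24 positive members in sample 3, and Slc44a5, a transporter that was also found in mature DC-like cells, at 9.79, 2.91, 171 and 52.6 CPM, with 16 in sample 3. Cstdc4 was the remaining gene of the 10. Each of these levels had its highest sample at least 3 times over the next.

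The B and plasma cell list ranged from 61.8 to 1079.6 CPM in sum, with the median range of its 3 genes over 50 CPM at 3.88 on the log2 scale against 0.81 over all genes. Interferon-stimulated genes (2.60, over 3 of 11 genes), chemokines (2.38, 11 of 13), cytokines (2.32, 4 of 16) and neutrophil genes (2.25, 6 of 8) also had wide median ranges. These medians cover genes that reached 50 CPM in any sample, so that a gene could enter through its highest sample alone. The neutrophil list had 5 of 6 genes with a 4-fold range and summed to 1080, 1152, 3748 and 856 CPM in members, with S100a9 giving 48.2% of it and Ngp held at 0 by the rule. S100a8 was at 484, 369.6, 1453 and 328 CPM in members and at 2047, 485, 3051 and 5247 in monocyte-like cells. A few members carried these S100a8 levels. In sample 3, those with 237, 155, 97, 93, 90, 80, 76, 47, 35 and 21 UMIs gave most of 994, and no other had over 4. Single members gave 174 of 297 UMIs in sample 1, 95 of 127 in sample 2 and 71 of 106 in sample 4. Sample 3 also stood highest for Cd14 (158, 195, 548 and 189 CPM), Cxcl2 and Il1rn, at 84.8, 43.7, 447 and 129.9 CPM. The part of free RNA from neutrophils or monocytes in these levels was not tested. Igkc, an immunoglobulin chain, was at 104, 809, 99.4 and 21.6 CPM in members, beside levels in monocyte-like cells (114, 759, 84.4 and 40.5) and mature DC-like cells (111, 799.7, 69.8 and 28.3). Sample 2 was thus highest and sample 4 lowest also in sets that should lack it. Members with at least 3 UMIs of T cell, innate lymphocyte, mast cell or B cell genes (without Il7r, Kit, Igkc, Ighm and Jchain) numbered 5, 5, 4 and 2, and a doublet score marked 1, 0, 6 and 0.

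Interferon-induced genes had no common order among samples in members. Psmb9, an immunoproteasome subunit, was at 303, 183, 126 and 77.3 CPM and Gbp2, a guanylate-binding protein, at 326, 151, 114 and 49.5, both highest in sample 1 and lowest in sample 4. Isg15, a ubiquitin-like protein, was highest in sample 2, at 91.3, 157, 132 and 21.6 CPM, and Oasl2 in sample 3, at 37.5, 20.4, 42.4 and 30.9. For Psmb9 cDC1-like cells had the same order (460.2, 329, 190.2 and 135 CPM), and so had monocyte-like cells (189, 92.5, 66.1 and 49.8), whereas Gbp2 was at 945, 154, 384 and 150.3 in monocyte-like cells. Zeb2, a repressor that supports the cDC2 and monocyte fates, was at 757, 882, 2036 and 1462 CPM, and Id2, which restrains E proteins, at 462, 134, 931 and 943. Irf4 and Cd7 were both highest in sample 2 and lowest in sample 3. With no group for any sample, these differences stay values of 4 samples.

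**Figure D5:**
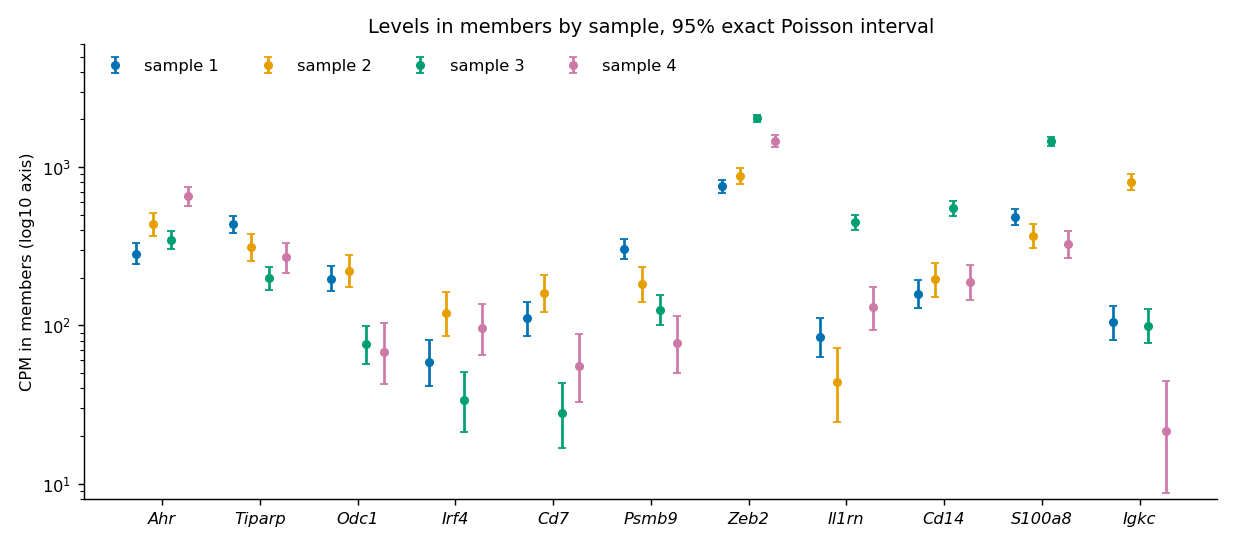
Level of 11 genes in the members of samples 1 to 4 as CPM on a log10 axis, with the 95% exact Poisson interval. Ahr was highest in sample 4, Odc1 higher in samples 1 and 2 than in samples 3 and 4, Psmb9 was highest in sample 1 and lowest in sample 4, and Igkc was highest in sample 2.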

How the data were processed

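Matrices of UMI counts as deposited by the authors were read, written by Cell Ranger 7.0.1 per the file headers. The submitters' processing notes name Cell Ranger 5.0.0, STAR, Seurat and mm10. UMI counts of each set were summed per sample and scaled to CPM here, with a pseudocount of 5 for log2 values. Of 309 listed genes, 307 were matched, and the 2 others were not analysed here. Genes named were those of 33 lists, the 10 per direction with the largest smallest-over-samples difference at 50 CPM or more, and the 10 with the largest range. The members and lists were chosen with earlier results of these data known, and genes named outside this rule were chosen after their values were seen. The divisions of members were read from 10 cells on each side, a minimum chosen after seeing the data. Doublets were scored by Scrublet in scanpy 1.11.5 and kept. Samples were separate libraries, and every pair differed by more than sampling noise (chi-square per gene 99.1 to 969). Python 3.11.15, numpy 2.4.6, scipy 1.17.1 and pandas 2.3.3 were used, and the steps were tested on simulated data. Alternatives were other cell filters, Flt3, MHC class II, Dpp4 and doublet settings, pseudocount, low-level filter, and samples left out. Some genes that the rule names are not reported here.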

Additional observations from a re-analysis of the deposited data

How the results depend on the processing

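Counts of genes past 2-fold changed most under settings that also changed how many samples were read. With at least 2 Flt3 UMIs the median share of members was 0.228% in place of 0.434%, and counts were 1148 (in place of 441) against cDC1-like, 1224 (596) against mature DC-like and 1581 (684) against monocyte-like cells, each from 1 sample. That setting gave 440 (46) for the Cd209a division, from 2 samples, and 536 (241) for the range between samples, from all 4. It left 116 members, so that fewer members and fewer samples read cannot be told apart in the counts past 2-fold. With a minimum of 10 cells per set, chosen after seeing the data, all 4 samples were read, and 228 genes passed against cDC1-like cells, of which 133 higher and 89 lower were among those called at 30 cells. Against mature DC-like cells 324 passed, of which 118 and 200 were. Leaving out sample 1 or 3 left 1 sample to read and gave 1097 to 1208 genes against cDC1-like and 1231 to 1487 against mature DC-like cells, and leaving out any sample gave 769 to 838 against monocyte-like cells, 111 to 120 for the Cd209a division, and 130 (without sample 3), 134 (without sample 2) to 185 for the range count. A pseudocount of 1 CPM gave 79 genes for the Cd209a division, and no low-level filter gave 672 for the range. The total counts under all other alternatives stayed within 1.5 times the value reported, but for the Cd209a division the 11 genes called higher became 22 with Dpp4 not counted and 21 with other-lineage members left out (the latter chosen after seeing the data). The Cd209a division at a minimum of 30 cells gave no value, since no sample reached it. No paired analysis was possible because the labels put no sample in a group. The summed UMIs of the members limit samples 2 and 4 most, which have the fewest members and where 1 UMI was worth 2.91 and 3.09 CPM.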

Other observations

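Over all filtered cells, Xist had 6, 6, 2 and 2 UMIs in samples 1 to 4, while the Y-linked Ddx3y was detected in 73.8%, 71.6%, 71.0% and 71.1% of cells. In members, Xist had 0 UMIs. The methods state that mice of both sexes were studied, and the labels used here give no sex for these samples.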
